A study of Mus musculus with 34 samples.

Results

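T cells that carried the CD28 allele labelled DKI were set against T cells labelled CD28 KO, both 24 hours after stimulation. The members were the 5 libraries whose labels give these genotypes at day 1, 3 of DKI and 2 of CD28 KO, out of 34 libraries in the series. All cells were pan T cells, a mixture of CD4+ and CD8+ cells, taken by negative selection from spleens of C57BL/6 mice aged 6 to 12 weeks. Every group had been cultured with antibodies to CD3 and to CD28 and with recombinant IL-2, so the antibody to CD28 and the IL-2 were also present in cells labelled CD28 KO. Beside the DKI and CD28 KO groups, the text gives levels of 3 CD28 AYAA and 3 CD28 Y170F libraries, which carry a single tail change each, and of 2 wild type (WT) libraries, numbers 1 and 4, all stimulated for the same 24 hours. The design text calls the first allele CD28 DKI, and the labels do not spell out its changes. In this field a double knock-in of CD28 carries the changes of AYAA and Y170F together in the cytoplasmic tail, and the comparison then asks what a receptor with an altered tail retains over no receptor.

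CD28 is the costimulatory receptor of T cells. It binds CD80 and CD86 on antigen-presenting cells, and its tail carries a tyrosine motif that recruits phosphatidylinositol 3-kinase and a proline motif that binds the kinase LCK and adaptors such as GRB2. With the antigen receptor it raises IL-2, survival proteins, nutrient uptake and glycolysis, and it helps naive cells to enter the cell cycle.

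Depth was 8.3 to 10.6 M counts in the 3 DKI libraries, against 15.7 and 18.9 M in the 2 libraries labelled CD28 KO. All DKI libraries lay under 12 M counts and both CD28 KO libraries above, so depth and genotype cannot be told apart within these groups. Only WT, with library 1 at 26.4 and library 4 at 10.4 M, holds both depths. By Xist and Y-linked transcripts the DKI libraries and CD28 KO library 1 were from males and CD28 KO library 2 from a female. Small noncoding RNA took 4.43 to 4.97% of counts in DKI and 5.64 and 6.39% in CD28 KO, and ribosomal protein genes took 5.02 to 5.2% in DKI and 4.27 and 4.68% in CD28 KO. Neither pair of ranges overlapped, and an exact two-sided permutation test gave p = 0.1 for each, the smallest that 3 against 2 libraries allow. The labels call the samples biological replicates and do not say how many mice each came from.

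Cd28 itself had 530, 554 and 524 CPM (counts per M counts, with library sizes scaled by TMM) in DKI libraries 1, 2 and 3, against 482 and 476 CPM in the libraries labelled CD28 KO. The log2 fold change was 0.16 with a standard error of 0.16 (edgeR's quasi-likelihood test, Benjamini-Hochberg adjusted p = 0.58). WT libraries had 387 and 411 CPM. A count over the whole gene cannot show a change of a few codons, nor the loss of part of the gene, and so it checks neither label. Every direction given here is therefore for libraries labelled CD28 KO. Among 12 T cell markers, the summed level was 3116 to 3315 CPM in DKI and 2768 and 2749 CPM in CD28 KO, so both groups held the T cell transcripts their labels name.

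Of 18292 genes tested, 1153 were higher and 504 lower in DKI than in CD28 KO at an adjusted p under 0.05, 9.06% of the genes tested. The higher genes were 6.3% and the lower genes 2.76% of all. Among the higher genes the median log2 fold change was 0.67, and 279 exceeded 1. The lower genes had a median of -0.68, and 165 of them lay below -1. Over all genes tested the median was 0.01. CPM values of the groups did not overlap for 9000 genes (49.2%), so a lack of overlap alone sets few genes apart. Leaving out CD28 KO library 1 left 207 genes called, leaving out CD28 KO library 2 left 740, and leaving out 1 DKI library left 917 without number 1, 1043 without number 2 and 917 without number 3. In bulk RNA, a change in the share of cells of one kind and a change in RNA per cell cannot be told apart, here or in the results that follow.

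**Figure D1:**
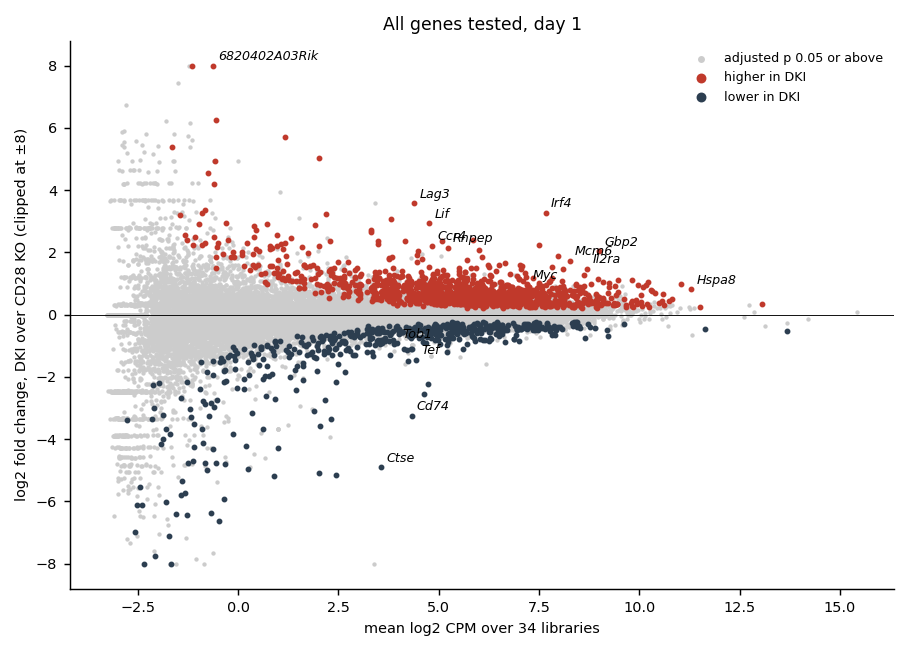
Each point is 1 of the 18292 genes tested, with its mean level over the 34 libraries on the x axis and its log2 fold change of DKI over CD28 KO on the y axis. Red points are the 1153 genes called higher in DKI, dark points the 504 called lower, and Irf4, Lag3 and Ctse stand far from 0 at levels where most genes lie close to it.

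The gene lists held 677 genes tested, of which 144 were higher and 18 lower in DKI. In the same fit 9.06% of all genes were called. Both this count and those of single lists are descriptions, since the lists were chosen with earlier results of these data known.

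**Figure D2:**
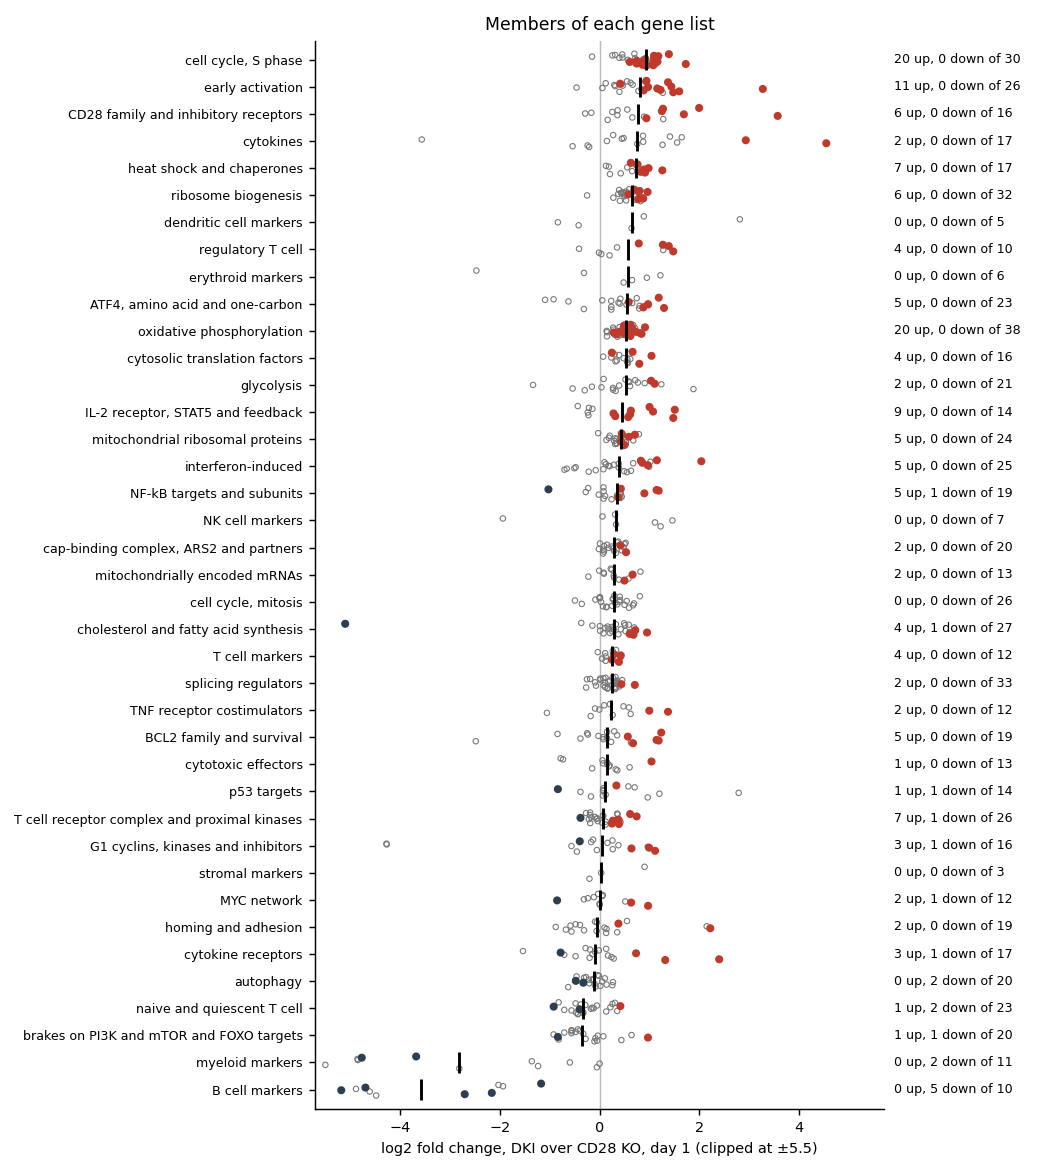
Each row is a gene list and each point a tested member, placed by its log2 fold change of DKI over CD28 KO. Filled points passed an adjusted p of 0.05, vertical bars are list medians, and the S phase, early activation and CD28 family lists have the highest medians while the B cell and myeloid markers have the lowest.

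Of 16 receptors of the CD28 family and inhibitory receptors tested, 6 were higher in DKI and 0 lower, with a list median of 0.77. Lag3, an inhibitory receptor that binds MHC class II, had 46.3, 48.9 and 50.7 CPM in DKI, against 4.31 and 3.87 CPM in CD28 KO. Every DKI library was thus far above both CD28 KO libraries, and the WT libraries, at 33.1 and 67.0 CPM, lay on either side of DKI. That was 3.57 ± 0.42 (SE) on the log2 scale, at an adjusted p of 5.5e-06. Icos, the inducible costimulator, had 111, 118 and 115 CPM in DKI, against 58.1 and 61.4 CPM in CD28 KO and 166 and 172 CPM in WT (log2 fold change 0.94 ± 0.14 SE, with an adjusted p of 0.00012). Cd274 and Pdcd1lg2, the ligands of PD-1, were higher by 1.27 ± 0.22 and 2.00 ± 0.39 on the log2 scale (SE), and Tigit and Cd200 were higher too. Ctla4, the high-affinity rival of CD28 for its ligands, had 35.4, 33.7 and 33.5 CPM in DKI and 15.8 and 12.5 CPM in CD28 KO. These values did not overlap, yet the adjusted p was 0.061. The list had 3 calls without CD28 KO library 1, and 2 with library depth as a term in the model.

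Among 12 costimulators of the TNF receptor family, Tnfrsf18 (GITR) and Tnfrsf9 (4-1BB) were higher. Tnfrsf18 had 56.5, 58.7 and 52.7 CPM in DKI and 29.4 and 26.7 CPM in CD28 KO, a difference of 1.00 ± 0.10 (SE) on the log2 scale at an adjusted p of 7.5e-07. The 26 genes of the antigen receptor complex and its proximal kinases had a median of 0.07. In that list 7 were higher, among them Malt1, Zap70 and Cd3e, and 1 was lower, Plcg1, which encodes the phospholipase that makes diacylglycerol and inositol trisphosphate. Their sizes were small: Cd3e, a CD3 chain, had 323, 354 and 339 CPM in DKI and 260 and 258 CPM in CD28 KO (log2 fold change 0.39). Lck, the kinase that starts receptor signalling, had 379 to 389 CPM in DKI and 407 and 380 CPM in CD28 KO, and the groups overlapped. By the same edgeR test the list had 0 calls in either direction without CD28 KO library 1. With the depth term 1 gene was called.

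Early activation genes, most of them transcription factors induced by the antigen receptor, were higher in DKI in 11 of 26 cases and lower in 0, with a list median of 0.81. Irf4 encodes a transcription factor whose amount follows the strength of antigen receptor signalling. It had 537, 532 and 569 CPM in DKI, against 64.7 and 48.4 CPM in CD28 KO. The 3 DKI libraries lay close together and far above CD28 KO, and the WT libraries, at 724 and 930 CPM, lay above them. That was 3.27 ± 0.27 (SE) on the log2 scale, at an adjusted p of 2.3e-08, the largest of any gene of this list. Il2ra, the alpha chain of the IL-2 receptor, had 262, 254 and 271 CPM in DKI and 96.9 and 91.6 CPM in CD28 KO. That order was kept by all 5 libraries, and WT had 786 and 644 CPM (log2 fold change 1.48 ± 0.25 SE, with an adjusted p of 0.00043).

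The immediate early genes Fos and Egr1 had another order. Fos, part of the AP-1 factor, had 16.3, 17.9 and 17.4 CPM in DKI, 6.90 and 5.83 CPM in CD28 KO and 5.12 and 9.12 CPM in WT. Egr1, a zinc finger factor induced within minutes of signalling, had 158, 161 and 167 CPM in DKI, 95.5 and 80.2 CPM in CD28 KO and 61.8 and 104 CPM in WT. DKI thus stood above CD28 KO (log2 fold change 0.88 ± 0.24 SE, with an adjusted p of 0.021), and both WT libraries lay below every DKI library. Egr2 was called at 1.22 ± 0.33, but with library depth as a term its value was -0.04 and its direction turned. Egr1 had 0.30 with that term and was no longer called. Cd69, an early surface marker, had 145, 135 and 160 CPM in DKI and 60.1 and 61.9 CPM in CD28 KO, with an adjusted p of 0.055. Across the list, 3 calls were left without CD28 KO library 1, 3 without CD28 KO library 2, and 6 with the depth term.

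**Figure D3:**
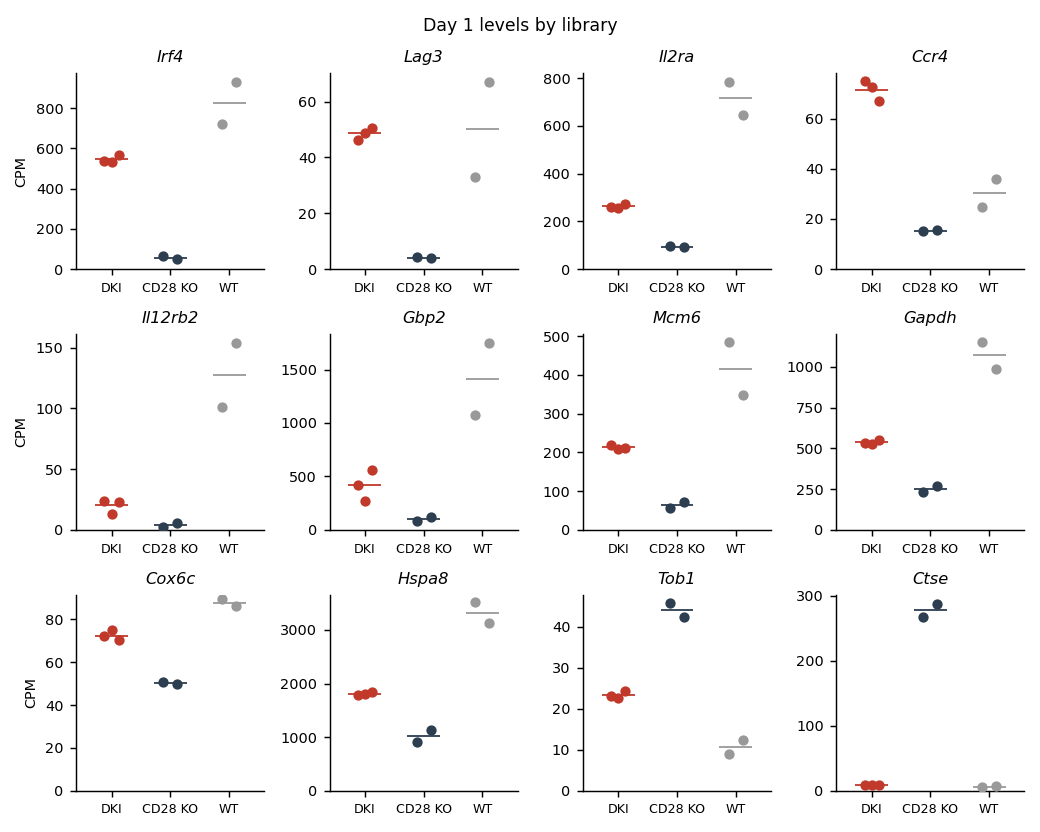
Levels in CPM of 12 genes in the day 1 libraries of DKI, CD28 KO and WT, with 1 point for each library and a line at each group mean. DKI and CD28 KO do not overlap in any panel, and Irf4 reaches 532 to 569 CPM in DKI against 48.4 and 64.7 CPM in CD28 KO. The panels were picked from called genes, of which 1152 of 1153 higher and 504 of 504 lower ones did not overlap.

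Genes of the IL-2 receptor, STAT5 and their feedback were higher in 9 of 14 cases and lower in 0, although every culture had been given IL-2. The other 5 members were lower in CPM in every DKI library than in both CD28 KO libraries, an order found in 4078 of all 18292 genes tested. None of these 5 members passed the test in the fit over all libraries. In a fit to only the 5 libraries compared, all 5 were called lower beside the same number higher, 9. The 9 were Il2ra, Il2rb and Il2rg for the receptor chains, Jak3 and Stat5a for the kinase and the factor they activate, and Pim2, Socs1, Socs2 and Cish, which STAT5 induces. Socs2, a feedback inhibitor, had 29.7, 27.9 and 32.0 CPM in DKI and 9.95 and 11.0 CPM in CD28 KO, a difference of 1.51 ± 0.32 (SE) on the log2 scale at an adjusted p of 0.0045. Jak1, among those not called, had 912 to 974 CPM in DKI and 1144 and 1053 CPM in CD28 KO. DKI library 3 was the highest of the 3 DKI libraries in 13 of the 14 genes. Calls in the list numbered 2 without CD28 KO library 1, 5 without CD28 KO library 2, 4 without DKI library 3 and 5 with the depth term.

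Cytokine genes were mostly low. Of 17 tested, Il21 and Lif were higher in DKI and 0 were lower (11.8% called, against 9.06% of all genes). Lif, a cytokine of the IL-6 family, had 12.4, 10.1 and 15.4 CPM in DKI, 1.03 and 2.2 CPM in CD28 KO, and 134 and 79.1 CPM in WT. It stood above CD28 KO and still further below WT, and the log2 difference from CD28 KO was 2.93 ± 0.82 (SE) at an adjusted p of 0.027. Il2, the cytokine that CD28 is best known to raise, had at most 0.111 CPM in DKI and 0.115 CPM in CD28 KO, and 0.792 and 1.84 CPM in WT, so a difference was not detectable at this depth. Tnf had 39.8 to 44.3 CPM in DKI and 21.7 and 23.9 CPM in CD28 KO, with an adjusted p of 0.14. The cytotoxic gene Gzmb had 39.1, 21.6 and 38.1 CPM in DKI and 18.4 and 34.3 CPM in CD28 KO, which overlap, while WT had 371 and 216 CPM. Tbx21, the T helper 1 factor T-bet, was the 1 member of 13 cytotoxic genes called higher (7.69% called, against 9.06% of all genes). Without CD28 KO library 1 neither list had a call by the same edgeR test. With the depth term Lif was called at 4.57 on the log2 scale, while Il21, at 1.73 against 4.55 without that term, and Tbx21 were not.

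The receptors for IL-12 were higher in DKI. Il12rb2, its inducible chain, had 23.6, 13.4 and 23.2 CPM in DKI, 2.19 and 5.34 CPM in CD28 KO, and 101 and 154 CPM in WT. DKI library 2 was the lowest of its group and still above both CD28 KO libraries (log2 fold change 2.40 ± 0.34 SE, with an adjusted p of 5.4e-05). Il12rb1 and Il15ra were also higher, and Il18r1, an IL-18 receptor chain, was lower at 47.0 to 48.4 CPM against 73.2 and 91.2 CPM in CD28 KO. These were the 4 calls among 17 cytokine receptors. With the depth term Il12rb2 and Il12rb1 stayed called, and Il15ra (0.55) and Il18r1 (-0.82) did not. Without CD28 KO library 1 the log2 fold change was 1.92 for Il12rb2 and 0.90 for Il12rb1. Among 19 homing and adhesion genes Ccr4 and Itgal were higher (10.5% called, against 9.06% of all genes). Ccr4, a chemokine receptor of T helper 2, regulatory and skin-homing cells, had 75.2, 72.8 and 67.0 CPM in DKI, against 15.2 and 15.6 CPM in CD28 KO, and WT lay between at 24.9 and 36.0 CPM (log2 fold change 2.22 ± 0.24 SE, with an adjusted p of 1.9e-06). CD28 AYAA averaged 65.0 CPM and CD28 Y170F 38.8 CPM. Of 10 regulatory T cell genes, Il2ra, Izumo1r (folate receptor 4), Capg and Gpr83 were higher and 0 were lower. With the depth term 1 of the regulatory T cell genes was called.

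Genes that interferons induce were higher in 5 of 25 cases and lower in 0, with a median of 0.38. Gbp2, a guanylate-binding GTPase, had 424, 275 and 561 CPM in DKI and 83.9 and 120 CPM in CD28 KO, a difference of 2.04 ± 0.23 (SE) on the log2 scale at an adjusted p of 4.2e-06. Igtp, an immunity-related GTPase, had 449, 366 and 539 CPM in DKI and 168 and 240 CPM in CD28 KO. In both genes the DKI libraries kept 1 order, with library 2 lowest and library 3 highest, and library 2 was the lowest DKI library in 23 of the 25 genes. Bst2 and Gbp3 were also called. Irf9 and Stat2, factors of the response to type I interferon, overlapped between the groups, and with the depth term their differences turned to -0.38 and -0.29. Iigp1 and Gbp10, outside the list, ranked among the genes most raised, at 2.24 ± 0.31 and 2.07 ± 0.36 (SE). Without CD28 KO library 1, and also with the depth term, 3 of the 5 list genes stayed called, and with the depth term the list median turned to -0.24.

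Gbp2 and Igtp are shown because they had the smallest p of the list and their promoters hold the letters that interferon-activated factors read. Each line gives the 250 bases before the gene's start in RefSeq (GRCm38.p6), 5′ to 3′ on the gene's strand, with capitals on matches to GAAANNGAA (ISRE-like) or TTCNNNGAA (GAS-like) on either strand. Gbp2 lies at chr3:142620413-142620662 on the plus strand and Igtp at chr11:58199306-58199555 on the plus strand.
Gbp2: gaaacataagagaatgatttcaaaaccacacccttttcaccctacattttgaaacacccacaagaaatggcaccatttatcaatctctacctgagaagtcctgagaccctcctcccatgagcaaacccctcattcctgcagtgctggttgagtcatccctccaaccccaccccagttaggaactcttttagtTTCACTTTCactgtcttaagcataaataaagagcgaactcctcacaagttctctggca
Igtp: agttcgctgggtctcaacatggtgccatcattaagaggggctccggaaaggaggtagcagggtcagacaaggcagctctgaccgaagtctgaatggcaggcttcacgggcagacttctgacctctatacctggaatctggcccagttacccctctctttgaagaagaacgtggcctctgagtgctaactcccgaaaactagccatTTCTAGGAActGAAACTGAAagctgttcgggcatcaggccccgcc
The first motif stood in 11 of 24 promoter windows of the list (45.8%) and in 7.13% of all 32851 windows, and the second in 5 of 24 windows (20.8%) and in 7.02% of all. RefSeq windows were found for 19 of the 25 genes. In Igtp the 2 motifs stand side by side without overlap.

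Of 30 S phase genes, 20 were higher in DKI and 0 lower, with a median of 0.93, and 29 of 30 had a positive log2 fold change. Mcm6, a subunit of the replicative helicase, had 220, 208 and 211 CPM in DKI, against 57.2 and 71.5 CPM in CD28 KO. It lies on chromosome 1 at 67.61 Mb from Cd28, near Ctse at 70.92 Mb, a stretch described further below. WT libraries had 484 and 348 CPM, so DKI lay between them and CD28 KO without overlap (log2 fold change 1.73 ± 0.24 SE, with an adjusted p of 5.6e-05). Pole, the leading-strand polymerase, Gins2, Mcm5 and Mcm3 followed, with log2 fold changes of 1.06 to 1.13. Mcm5 had 108, 102 and 113 CPM in DKI and 45.0 and 58.1 CPM in CD28 KO.

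Mitotic genes gave 0 calls among 26 by edgeR, with a median of 0.28, and 1 gene was called by DESeq2. Mki67, the proliferation marker Ki-67, had 110, 101 and 97.8 CPM in DKI and 63.0 and 104 CPM in CD28 KO, so the groups overlapped, while WT had 894 and 334 CPM. Top2a, the topoisomerase that untangles chromosomes, had 102, 82.1 and 107 CPM in DKI and 44.4 and 75.7 CPM in CD28 KO (adjusted p = 0.078). The difference between the S phase and mitotic lists was not tested. Of the G1 genes, Ccnd2, a D-type cyclin, had 862, 852 and 905 CPM in DKI and 378 and 430 CPM in CD28 KO (log2 fold change 1.11 ± 0.14 SE, with an adjusted p of 1.2e-05). Its partners Cdk4 and Cdk6 were higher and Rb1, the retinoblastoma gene, was lower by a small amount, at 71.7 to 76.7 CPM against 97.7 and 97.1 CPM. Cdkn1b, which encodes the inhibitor p27, had 190, 186 and 215 CPM in DKI and 291 and 290 CPM in CD28 KO, with an adjusted p of 0.065.

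The S phase result rests on the CD28 KO libraries unequally. CD28 KO library 2 was above library 1 in 30 of 30 S phase genes and in 25 of 26 mitotic genes, against 51.6% of all genes tested. Without CD28 KO library 1, 1 S phase gene was called, and without CD28 KO library 2, 18 were. Leaving out DKI libraries gave 12 to 14, limma-voom gave 9, and the depth term gave 27 together with 11 mitotic genes.

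Mcm6 and Mcm5 are the S phase genes of smallest p whose promoters held an E2F-like motif, the element through which E2F factors switch on replication genes. Capitals mark TTTGGCGC or TTTCCCGC on either strand in the 250 bases before the RefSeq start. Mcm6 lies at chr1:128359706-128359955 on the minus strand and Mcm5 at chr8:75109259-75109508 on the plus strand (GRCm38.p6).
Mcm6: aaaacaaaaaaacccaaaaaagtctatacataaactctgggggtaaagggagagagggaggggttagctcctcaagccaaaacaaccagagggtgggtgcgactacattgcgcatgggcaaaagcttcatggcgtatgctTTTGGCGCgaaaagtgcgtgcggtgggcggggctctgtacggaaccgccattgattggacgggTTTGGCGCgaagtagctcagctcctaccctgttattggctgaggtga
Mcm5: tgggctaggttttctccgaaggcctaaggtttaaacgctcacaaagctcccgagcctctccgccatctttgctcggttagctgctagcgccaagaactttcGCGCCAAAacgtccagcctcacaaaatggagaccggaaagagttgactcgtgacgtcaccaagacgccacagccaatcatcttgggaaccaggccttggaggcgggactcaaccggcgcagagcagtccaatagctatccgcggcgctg
Mcm6 held 2 matches and Mcm5 held 1. Such letters stood in 5 of the 27 windows of the S phase list (18.5%), found for 24 of its 30 genes, and in 1.3% of all windows.

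Myc, which drives growth and ribosome production in activated T cells, had 166, 167 and 158 CPM in DKI and 74.0 and 92.8 CPM in CD28 KO, with WT above at 273 and 241 CPM (log2 fold change 0.97 ± 0.26 SE, with an adjusted p of 0.021). Its partner Max was higher by 0.63 ± 0.12 and Mxd3, an antagonist, lower by 0.85 ± 0.26 on the log2 scale (SE). With the depth term Myc (1.46) and Max (0.80) stayed called, and Mxd3 (-0.39) did not. Without CD28 KO library 1 the log2 fold change was 0.82 for Myc and -0.82 for Mxd3. Ribosome biogenesis genes were nearly all on 1 side, with 31 of 32 positive and a median of 0.64, but 6 were called. Npm1, a nucleolar chaperone, had 826, 811 and 815 CPM in DKI and 390 and 501 CPM in CD28 KO, and Ncl, nucleolin, was higher by 0.78 ± 0.20 (SE). All 16 translation factors tested had a positive log2 fold change, and 4 were called. Pabpc1, the cytoplasmic poly(A)-binding protein, led these with 0.66 ± 0.09 (SE, adjusted p = 2.8e-05). Ribosome biogenesis had 0 calls without CD28 KO library 1, 1 without CD28 KO library 2, 3 without any 1 DKI library, 14 by DESeq2 and 21 with the depth term.

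Chaperone genes were higher in 7 of 17 cases, and all 17 had a positive value, with a median of 0.73. Hspa8, the constitutive HSP70, had 1790, 1802 and 1845 CPM in DKI and 916 and 1135 CPM in CD28 KO. Hsp90ab1 and Cct2, a subunit of the chaperonin that folds actin and tubulin, were also higher, by 0.98 ± 0.18 and 0.76 ± 0.12 (SE). Cct2 alone of the list stayed called without CD28 KO library 1.

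The nuclear genes of oxidative phosphorylation moved together and by little. Of 38, 20 were higher in DKI and 0 lower, all 38 had a positive value, and the values ran from 0.14 to 0.91 with a median of 0.53. Uqcrc2, a core subunit of complex III, had 90.9, 83.0 and 92.8 CPM in DKI and 55.3 and 57.0 CPM in CD28 KO (log2 fold change 0.66 ± 0.11 SE, with an adjusted p of 0.00037). Cox6c, of complex IV, had 72.4, 74.9 and 70.3 CPM in DKI and 50.9 and 50.1 CPM in CD28 KO, with WT above at 89.5 and 86.1 CPM. Atp5b, of the ATP synthase, missed at an adjusted p of 0.052, and Sdha, of complex II, had 0.14 ± 0.11 (SE). Among mitochondrial ribosomal proteins 5 of 24 were higher, and among 13 mitochondrially encoded mRNAs mt-Nd1 and mt-Nd6 were. The oxidative phosphorylation list had 2 calls without CD28 KO library 1, 12 without CD28 KO library 2 and 28 with the depth term.

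Glycolysis showed a smaller number of calls for similar sizes. Of 21 genes, Gapdh and Ldha were higher and 0 were lower (9.52% called, against 9.06% of all genes). In this list 17 were positive, and the median was 0.52. Gapdh had 534, 527 and 553 CPM in DKI and 232 and 269 CPM in CD28 KO, with WT at 1154 and 985 CPM (log2 fold change 1.10 ± 0.24 SE, with an adjusted p of 0.0053). Hk2, the inducible hexokinase, had 16.7, 16.4 and 20.3 CPM in DKI, 3.34 and 6.22 CPM in CD28 KO and 94.5 and 59.5 CPM in WT. It had the largest value of the list, 1.88 ± 0.64 (SE), at an adjusted p of 0.062. Pkm, the pyruvate kinase gene whose splicing the series title concerns, had 348, 370 and 376 CPM in DKI and 233 and 255 CPM in CD28 KO, with WT at 887 and 643 CPM. Its log2 fold change of 0.58 ± 0.29 did not pass (adjusted p = 0.23), and gene-level counts do not separate its isoforms. With library depth as a term Pkm was called at 1.37 and Hk2 at 3.26 on the log2 scale. In a fit to only the 5 libraries compared 14 glycolysis genes were higher and 1 lower, and in one to the day 1 libraries also 14 and 1. With the depth term 10 glycolysis genes were called, and without CD28 KO library 1, 0 were by the same edgeR test.

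Among 23 genes of amino acid and one-carbon metabolism, 5 were higher and 0 lower. Odc1, which makes polyamines, had 89.0, 85.1 and 89.6 CPM in DKI and 33.5 and 43.7 CPM in CD28 KO, and Psat1 and Mthfd2, of serine synthesis and mitochondrial folate metabolism, were higher by 1.29 ± 0.34 and 0.97 ± 0.23 (SE). Of 27 lipid synthesis genes 4 were higher. The 1 lower gene, Scd1, a desaturase, had 0.177 to 0.224 CPM in DKI and 8.51 and 6.02 CPM in CD28 KO. Both lists had 0 calls without CD28 KO library 1, by the same edgeR test.

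Survival genes of the BCL2 family did not move as 1 group, with a median of 0.15 over 19 genes, 5 higher and 0 lower. Genes of opposed roles were among the 5. Bcl2 and the BCL2A1 genes Bcl2a1b and Bcl2a1d protect cells, and Bak1 promotes apoptosis. Bcl2 had 619, 556 and 592 CPM in DKI and 352 and 387 CPM in CD28 KO, close to WT at 496 and 587 CPM. Bcl2l1, which encodes BCL-XL, the survival protein that CD28 is known to raise, had 29.1, 25.1 and 27.8 CPM in DKI, 16.4 and 18.9 CPM in CD28 KO and 117 and 82.2 CPM in WT (log2 fold change 0.63 ± 0.26 SE, with an adjusted p of 0.13). With the depth term Bcl2l1 was called at 1.36 on the log2 scale, and in a fit to only the 5 libraries compared at 0.59. The Bcl2a1 copies are near-identical, so their split is uncertain. In the NF-kB list, Bcl3, Nfkb1, Icam1 and the same Bcl2a1 copies were higher, and Cd40lg, the ligand by which helper cells activate B cells, was lower at 12.1, 8.41 and 12.0 CPM against 21.6 and 22.7 CPM in CD28 KO. With the depth term 0 of the 19 NF-kB genes were called in either direction by the same edgeR test, while by DESeq2 5 were higher and 1 lower.

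Genes of the naive and resting state ran the other way in sign, with medians of -0.33 for naive T cell genes and -0.36 for brakes on phosphatidylinositol 3-kinase and FOXO targets. Of 23 naive genes 1 was higher and 2 lower, and of 20 brakes 1 was higher and 1 lower. The shares called were 13.0% and 10.0%, against 9.06% of all genes. Tob1, an antiproliferative factor of resting T cells, had 23.2, 22.5 and 24.4 CPM in DKI, against 46.0 and 42.5 CPM in CD28 KO and 8.97 and 12.4 CPM in WT (log2 fold change -0.92 ± 0.16 SE, with an adjusted p of 0.00064). Foxo1, the factor that phosphatidylinositol 3-kinase signalling keeps out of the nucleus, had 192, 196 and 200 CPM in DKI and 267 and 251 CPM in CD28 KO. Sesn1, a stress-induced brake on mTORC1, was lower by 0.84 ± 0.20 on the log2 scale (SE), and Tob2 and Ddit4 were higher. Satb1, an abundant naive gene not called, differed by -0.15. In a fit to only the 5 libraries compared, 15 naive genes and 12 brakes were lower, and in one to the day 1 libraries 7 of each. Without CD28 KO library 1 the brakes had 0 calls by the same edgeR test and 1 naive gene was lower, and Foxo1, Sesn1, Tob2 and Ddit4 were not called.

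Of 33 splicing regulators (6.06% called, against 9.06% of all genes), Hnrnpa1 and Hnrnpa3 were higher, with log2 fold changes of 0.71 ± 0.14 and 0.44 ± 0.14 (SE), and the median was 0.24. HNRNPA1 is a protein known to repress one of the alternative exons of Pkm. In a fit to only the 5 libraries compared 14 were higher and 3 lower, and in one to the day 1 libraries 9 and 1. Hnrnpa1 had 478, 475 and 470 CPM in DKI, 261 and 320 CPM in CD28 KO and 838 and 691 CPM in WT. Of 20 genes of the cap-binding complex, ARS2 and their partners (10.0% called), Ncbp2, the small cap-binding subunit, and Thoc5 were higher. Srrt, which encodes ARS2, had 158, 154 and 162 CPM in DKI and 154 and 148 CPM in CD28 KO, overlapping at 0.07 ± 0.23 (SE) on the log2 scale. By the same edgeR test both lists had 0 calls without CD28 KO library 1, and with the depth term 7 splicing genes were higher and 1 lower and 7 cap-binding genes were higher, with Srrt among them at 0.90 on the log2 scale (adjusted p = 0.038).

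Against WT of the same day, the lists lay at 2 distances. The S phase median was -1.60 for DKI minus WT and -2.54 for CD28 KO minus WT. Early activation had -0.60 for DKI and -1.47 for CD28 KO, the CD28 family -0.38 and -1.56, chaperones -0.70 and -1.46, oxidative phosphorylation -0.56 and -1.04, and glycolysis -0.75 and -1.14. Mitotic genes had -2.53 in DKI and -2.87 in CD28 KO. Naive T cell genes were above WT in both, at 0.59 in DKI and 0.89 in CD28 KO. The WT libraries themselves lay apart, with a median log2 ratio of library 4, of DKI's depth, over library 1 of -0.67 for S phase and -1.31 for mitosis, so these distances depend on the WT library used. Both contrasts use the same 2 WT libraries, and they share libraries with the comparison of DKI and CD28 KO, so these medians are side by side values and not further tests.

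Genes lower in DKI were led by Ctse, which encodes cathepsin E, an aspartic protease. It had 9.27, 9.19 and 9.34 CPM in DKI, against 268 and 287 CPM in CD28 KO. WT had 5.44 and 6.82 CPM, CD28 AYAA averaged 11.0 CPM and CD28 Y170F 6.18 CPM, so only the libraries labelled CD28 KO were high among these 5 groups. That was -4.91 ± 0.21 (SE) on the log2 scale, at an adjusted p of 1e-14. Tef, a transcription factor of the PAR family, had 14.7, 15.0 and 15.1 CPM in DKI and 40.0 and 41.6 CPM in CD28 KO. Myo10, a myosin of filopodia, had 22.1, 24.3 and 21.8 CPM in DKI and 50.5 and 46.8 CPM in CD28 KO. Atp2b4, a calcium pump of the plasma membrane, Eya2, Syne1 (nesprin-1) and Rapgef4, an exchange factor for Rap that cAMP activates, were lower by 0.96 to 1.33 on the log2 scale. Eya2 was at -0.31 (adjusted p = 0.59) with the depth term, and Syne1 and Rapgef4 were not called without CD28 KO library 1.

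Markers of B cells stood higher in the libraries labelled CD28 KO. Their summed level over 10 markers was 15.2, 14.6 and 13.5 CPM in DKI, against 112 and 82.6 CPM in CD28 KO and 25.5 and 12.1 CPM in WT. Of the 10 markers 5 were lower in DKI and 0 higher, and the list median was -3.59. With the depth term 2 were called lower and the median was -2.02, while limma-voom called 1 lower and DESeq2 8. Cd79b, part of the B cell receptor, had 2.38, 3.59 and 2.11 CPM in DKI and 12.9 and 11.2 CPM in CD28 KO, and Cd22 had 0.222 to 0.336 CPM in DKI and 11.3 and 8.96 CPM in CD28 KO. Cd74, the invariant chain of MHC class II, had 6.89, 8.63 and 8.56 CPM in DKI and 86.6 and 65.7 CPM in CD28 KO, and H2-Ob, of the same pathway, had 31.1 to 33.5 CPM in DKI and 78.3 and 78.2 CPM in CD28 KO. With the depth term Cd79b stayed called, and Cd22, Cd74 and H2-Ob did not. Myeloid markers summed to 4.23 to 4.93 CPM in DKI and 18.9 and 9.21 CPM in CD28 KO, with 2 of 11 lower. Of the NK cell, erythroid, dendritic and stromal markers 0 were called by edgeR in the fit over all libraries, and 0 by DESeq2. In a fit to only the 5 libraries compared, 1 NK cell marker and 1 dendritic marker were lower. The part of these cells in the 504 lower genes was not tested. An exact two-sided permutation test of either sum gave p = 0.1, the smallest possible here.

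A group of genes on chromosome 1, which carries Cd28 at 60716800 to 60773359 (GRCm38), showed large differences. Of 157 genes tested within 10 Mb of Cd28, 21 were higher and 1 lower in DKI. Over the whole of chromosome 1 the share called was 11.3%, and that of chromosome 15, the highest, was 12.6%, against 9.06% of all genes. Acadl, the long-chain acyl-CoA dehydrogenase of fatty acid oxidation, lies 6.11 Mb from Cd28. It had 36.9, 33.4 and 31.9 CPM in DKI, 5.64 and 7.44 CPM in CD28 KO and 48 and 41.4 CPM in WT, with averages of 13.4 CPM in CD28 AYAA and 16.6 CPM in CD28 Y170F (log2 fold change of DKI over CD28 KO 2.38 ± 0.20 SE, adjusted p = 2.3e-08). The nearby gene 6820402A03Rik, 6.08 Mb from Cd28, had 7.60, 6.05 and 6.00 CPM in DKI, from 86, 54 and 54 counts, and 0 counts in both libraries labelled CD28 KO. Against the floor of 3 counts per library it was at least 38-fold higher in DKI. It was also at 0 in CD28 AYAA and CD28 Y170F, and at 2.85 and 6.27 CPM in WT. Map2, a microtubule-associated protein 5.46 Mb away, was also higher at a low level, with 3.00, 1.91 and 2.33 CPM in DKI and 0 and 0.049 CPM in CD28 KO. Its averages were 2.76 CPM in WT, 0.032 CPM in CD28 AYAA and 0.23 CPM in CD28 Y170F. The genes Eef1b2 and Icos lie within the same 10 Mb.

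Far from Cd28, Ctse at 70.92 Mb and Rab7b, a small GTPase at 70.97 Mb, were neighbours, and Rnpep, which encodes aminopeptidase B, lay at 74.55 Mb; Rab7b was chosen after its values were seen. Rab7b had 0 CPM in all 3 DKI libraries and 1.73 and 1.57 CPM in CD28 KO. Rnpep had 32.1, 27.5 and 29.5 CPM in DKI and 6.90 and 6.46 CPM in CD28 KO, while WT had 48 and 42.5 CPM (log2 fold change 2.15 ± 0.16 SE, with an adjusted p of 3.1e-09). At day 3 Ctse had a log2 fold change of -5.30 and Rnpep of 1.89, both called. The S phase gene Mcm6 lies near these genes, at 67.61 Mb, and next to Lct at 67.57 Mb. Lct was higher in DKI by 2.84 on the log2 scale at day 1 and 2.50 at day 3. How the strains carrying each allele differ along this chromosome was not tested, nor was its part in the Mcm6 difference.

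**Figure D4:**
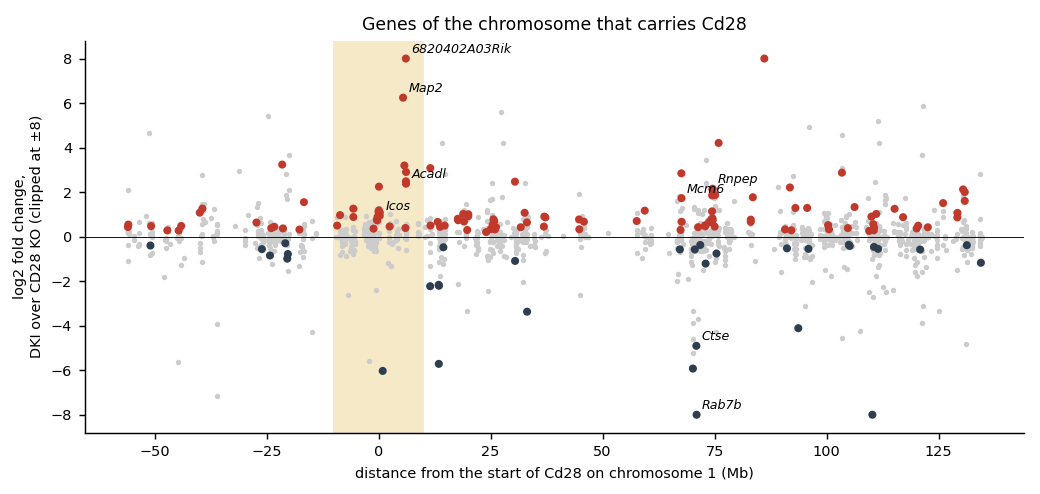
Genes tested on chromosome 1, by distance in Mb from the start of Cd28 on the x axis and log2 fold change of DKI over CD28 KO on the y axis. Red and dark points are genes called higher and lower, the shaded band marks 10 Mb on either side of Cd28, and 6820402A03Rik, Map2 and Acadl stand high about 6 Mb from it while Ctse and Rab7b stand low at about 71 Mb.

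Other genes that ranked among the highest were Chst2, a sulfotransferase, with 10.2, 9.08 and 9.12 CPM in DKI and 1.61 and 1.42 CPM in CD28 KO, and Dusp6, the phosphatase that turns off ERK, with 26.9, 28.6 and 33.4 CPM in DKI and 6.96 and 7.25 CPM in CD28 KO. WT lay above DKI for Chst2, at 15.4 and 13.4 CPM, and below it for Dusp6, at 18.2 and 20.2 CPM. Synpo, which binds actin, and Mid1, a ubiquitin ligase on microtubules, were higher by 2.27 ± 0.35 and 1.92 ± 0.37 (SE).

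By 72 hours the same comparison, made between other libraries, called 83 of 18292 genes (0.454%), 40 higher and 43 lower in DKI. The S phase list had 0 calls at day 3 with a median of 0.26, and the early activation list had 1 call higher with a median of 0.21. For 35 genes (0.191%) the difference itself changed between the days, and 32 of these were lower at day 3 than at day 1. Irf4 averaged 138 ± 3.86 CPM in DKI (SD, n = 3) and 75.6 ± 19.1 CPM in CD28 KO (SD, n = 2) at day 3, and its log2 fold change of 0.87 was 2.41 ± 0.34 below that of day 1 (SE, adjusted p = 0.0034). Gbp2 averaged 575 CPM in DKI and 527 CPM in CD28 KO at day 3, so that both groups had reached a similar level, and Iigp1 and Igtp also had day 3 log2 fold changes of -0.07 and 0.05. Lag3 remained called at day 3, at 18.9 CPM in DKI and 4.88 CPM in CD28 KO on average.

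**Figure D5:**
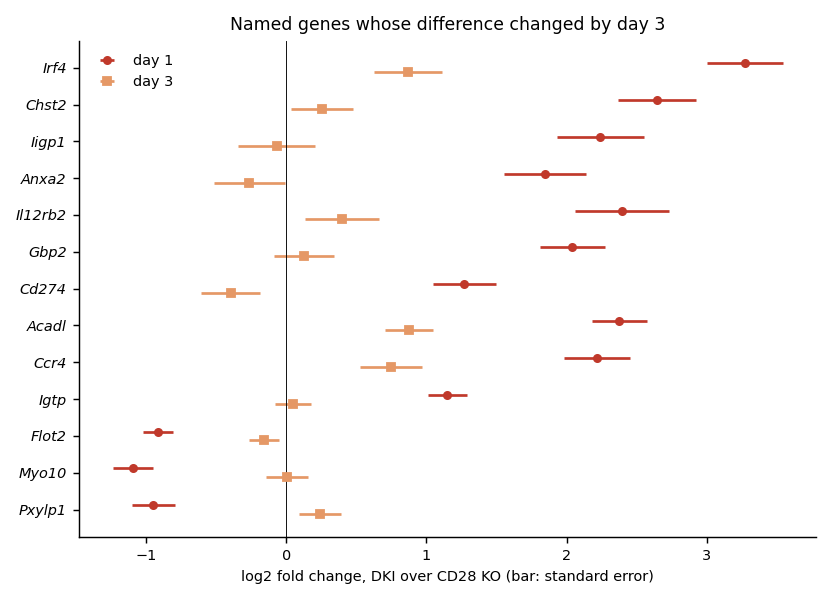
Log2 fold changes of DKI over CD28 KO with their standard errors, at day 1 (round points) and day 3 (squares), for the named genes whose difference changed between the days. Irf4 stands at 3.27 on day 1 and 0.87 on day 3, and the interferon-induced genes Gbp2, Igtp and Iigp1 stand close to 0 on day 3.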

How the data were processed

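RNA of mouse spleen T cells was depleted of ribosomal RNA and made into strand-marked libraries, per the labels' protocols. The authors deposited the expected counts of each gene as 1 table over 34 libraries. The submitters' processing notes name bcl2fastq 2.20, FastQC, STAR, RSEM and limma, without the annotation release or strand setting, which are not given in the sources used here. In the 5 libraries compared, 88.5 to 90.8% of the deposited expected counts were whole. Such estimates divide reads among near-identical genes, and single copies are then uncertain. The same holds for overlapping and, with the strand setting unknown, antisense genes. Symbols and positions came from GENCODE M21 (GRCm38), which matched 48144 of 48526 genes (99.2%).

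After rounding, edgeR 4.0.16 in R 4.3.3 fitted 1 mean for each of 13 groups over all 34 libraries, with TMM factors, for the 18292 genes that passed its filterByExpr function at default settings. Quasi-likelihood tests compared DKI with CD28 KO, with Benjamini-Hochberg adjustment over all genes tested and a call at an adjusted p under 0.05. Every adjusted p beside a gene is from this fit unless another tool is named. The standard error (SE) is the log2 fold change divided by the square root of F. Checked on simulated counts of this comparison (18086 genes), the test called 91% of genes changed by 1 and 99% of those changed by 2 on the log2 scale. Of its 201 calls 11 were false. The changed genes all had a mean log2 CPM of 3 or more, and no effect of depth or sex was simulated. These rates hold only for such a setting. Precision is limited by 3 and 2 libraries. The p-values weigh a difference against a spread estimated within all 13 groups, and not within the 5 libraries compared alone.

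Always named were Cd28, Ctla4, Icos, Pkm, Srrt, Il2, Myc, Hk2 and Bcl2l1. Up to 14 genes per direction were named by largest fold change, if called, without overlap and at a mean log2 CPM of 3 or more. This ranking skipped predicted, mitochondrial, ribosomal protein, small nucleolar and Y-linked genes, receptor segments and Xist. Each list gave up to 5 called and 2 uncalled members, the change between days up to 4 genes per direction, and the 10 Mb around Cd28 up to 6 called genes. Further genes of the lists, Cd274 in the comparison of days and Rab7b were chosen after their values were seen. Some genes that the rule named are not reported here. The comparison, the lists and this rule were chosen with earlier results of these data known.

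Alternatives were RLE factors, limma-voom (limma 3.58.1), DESeq2 1.42.0, no filter, protein-coding genes only, only the 5 libraries, only the 16 libraries of day 1 with and without a replicate block, a term for depth under 12 M counts, a term for sex, and each library left out. The depth term is estimated from WT libraries 1 and 4 at 2 time points. Where 1 CD28 KO library is left out, the lone one is assumed to vary like the other groups. Promoter sequences are from RefSeq (GRCm38.p6). Python 3.11.15 with pandas 2.3.3, numpy 2.4.6 and matplotlib 3.10.9 made tables and plots.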

Additional observations from a re-analysis of the deposited data

Results flagged for a closer look

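The difference between DKI and CD28 KO changed between day 1 and day 3 for 35 genes. This was by a test of the change itself in the same edgeR model (adjusted p under 0.05), with no libraries shared between the days. The model treated libraries of the 2 days as independent, and whether some came from the same mice was not tested. At an unadjusted p under 0.05 there were 1308. Of the 35 genes, 33 were called at day 1, 30 of them higher in DKI, and 3 were called at day 3. The named genes among them are given here by the day 3 log2 fold change minus that of day 1. Among genes higher in DKI at day 1, the change was -2.41 for Irf4, -2.39 for Chst2, -2.31 for Iigp1, -2.11 for Anxa2, -2.0 for Il12rb2 and -1.92 for Gbp2. It was -1.67 for Cd274, -1.50 for Acadl, -1.47 for Ccr4 and -1.10 for Igtp. Among genes lower in DKI at day 1, it was 1.10 for Myo10, 1.19 for Pxylp1 and 0.76 for Flot2. Cd274 averaged 76.2 ± 3.19 CPM in DKI (SD, n = 3) and 100 ± 3.49 CPM in CD28 KO (SD, n = 2) at day 3, and Acadl, still called, 67.1 ± 0.81 CPM in DKI and 36.7 ± 1.99 CPM in CD28 KO. Without CD28 KO library 1 of day 1, 1 gene was called for such a change. With library depth as a term 43 genes were called, all 35 among them. Depth differs between the groups in the same way on both days, so this term cancels in the difference between days, and a part of depth that changes with the day was not tested.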

How the results depend on the processing

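The full fit called 1657 genes. RLE factors called 1611 genes in all, 1591 of them among the 1657, limma-voom 1012 (997 shared), no filter 1582 (1210 shared) and DESeq2 2121 (1619 shared). A fit to only the 5 libraries called 4381 genes (1579 shared), of which 54.2% were higher against 69.6% in the full fit. Only the 16 day 1 libraries gave 2909 (1594 shared) and the depth term 1811 (893 shared), 78.5% of them higher. Leaving out 1 library gave 207 to 1043. The full fit called 162 list genes. In all, limma-voom called 97 list genes (97 shared), the 5 libraries alone 398 (161 shared), day 1 alone 292 (160 shared), and leaving out 1 library 24 to 106. The 35 genes that changed between the days became 23 with RLE factors, 19 with limma-voom, 81 with no filter, 89 with DESeq2 and 1 to 31 without 1 library. Of the 112 called genes named in the text, 40 stayed called without CD28 KO library 1, 71 without CD28 KO library 2, 78 to 90 without 1 DKI library and 68 with the depth term. The 40 were also called without each other library in turn. With the depth term 111 kept their direction, and the exception was Egr2 (-0.04). Among genes not called, that term turned Cd28 (-0.04), Lck (0.06), Irf9 (-0.38) and Stat2 (-0.29). Leaving out 1 library turned Il2 (-0.71 to 0.44), Gzmb (-0.05 to 0.85), Lck (-0.09 to 0.01) and Mki67 (-0.01 to 0.71), and limma-voom turned Il2 (0.1). The causes were not tested. The groups share 2 replicate numbers, and the deviations of same-numbered libraries correlated at 0.0017 and -0.025, so the numbers were not read as pairs. A replicate block on the day 1 libraries gave 3005 calls, against 2909 without it, and 312 list genes, against 292.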
